A study of Arabidopsis thaliana with 2 samples.

Results

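Heat shock transcription factors (HSFs) and the chaperones they are known to control were followed in Arabidopsis thaliana seedlings given the bacterial flagellin peptide flg22. The 43 genes were given as a list of locus identifiers drawn from these families, without all of their members, and all 43 were found among the 27416 genes of the deposited table. They comprise 17 HSF genes and 26 genes for chaperones and co-chaperones. Most of the encoded chaperones act in the cytosol, but 5 of the small heat shock proteins (HSPs) are known residents of the endoplasmic reticulum, mitochondria, chloroplast or peroxisome. RNA came from whole wild-type seedlings of strain Columbia at day 10 after germination, either untreated or exposed to flg22 at 1 µmol/L for 4 h. Each group is 1 library in which 3 biological replicates had been pooled, so differences were not checked against replicates and no p-value was computed. Gene-assigned reads totalled 21414567 for control and 24621440 for flg22. FRK1 (AT2G19190), a kinase gene widely used as a flg22 marker, was at 1.01 RPKM (reads scaled to gene length and library total) in control and 85.7 RPKM with flg22.

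Both shoot and root transcripts were present in the 2 libraries. The photosynthesis genes RBCS1A and LHCB1.1 were at 2713 and 1384 RPKM in control and at 1234 and 195 RPKM with flg22. The root genes PYK10 and PHT1;1 were at 751 and 24.2 RPKM in control and at 557 and 37.9 RPKM with flg22. In such bulk samples fewer cells of a type and less RNA per cell cannot be told apart, and the part of these shifts in the values below was not tested.

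HSFs are trimeric transcription factors that bind heat shock elements, repeats of GAA in alternating orientation, upstream of chaperone genes. In Arabidopsis the HSFA1 proteins start the heat response, HSFA2 and HSFA7 genes amplify and prolong it, and class B HSFs mostly act as repressors. HSP70 and HSP90 fold and hold client proteins, among them immune receptors, small HSPs bind unfolding proteins, HSP101 pulls aggregates apart, and co-chaperones couple or regulate these machines.

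Of the 43 genes, 25 were at least 2-fold higher with flg22, none was at least 2-fold lower, and 17 with reads lay between those limits. For these counts 1 RPKM was added to both values before the log2 ratio was taken, which makes the ratios of weakly expressed genes smaller. One further gene, HSFB1, was listed at 0 in both libraries. As a background, 18724 genes of the table averaged 1 RPKM or more over the 2 libraries, and of these 11.3% were past 2-fold upwards and 8.27% downwards. This background set holds 39 of the 43 genes, 24 of them past 2-fold upwards. Their median log2 ratio was 1.16, against -0.03 over the whole set. However, 8 of the 39 reached the mean of 1 RPKM only through the flg22 library, so that they had to be higher. Among genes already at 1 RPKM or more in control, 16 of 31 were at least 2-fold higher, where the share over all such genes was 9.52%, and the medians were 1.03 and -0.05. Summed over the 43 genes, reads made up 0.230% of the control library and 0.510% of the flg22 library.

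Folds below compare reads divided by library totals, and nothing was added to them. The range in parentheses is the exact 95% counting interval, which covers counting error only and not differences between plants or preparations. It includes 1 for 8 of the 42 genes with reads. In RefSeq's annotation HSFA1B, HSFA3, HSFB2B, HSFC1, HSP101, HSP70-3, HSP17.4-CI, HOP3 and FES1A overlap another gene, mostly on the opposite strand, so reads of the overlap may belong to either.

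**Figure D1:**
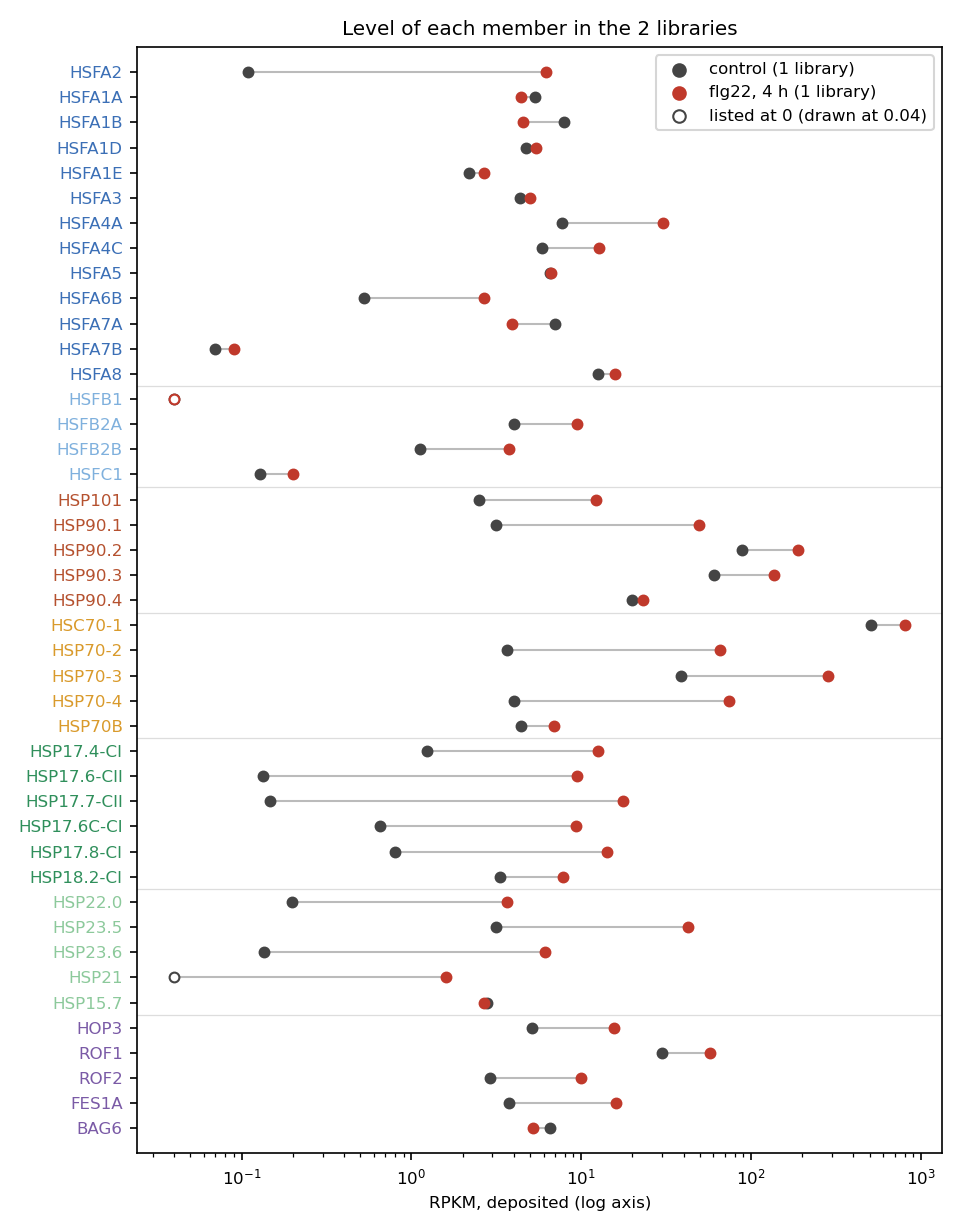
Level of each of the 43 genes in the control (dark) and flg22 (red) library, as deposited RPKM on a log axis; open circles mark values listed at 0 and are drawn at 0.04. HSC70-1 is the most abundant in both libraries, at 506 and 810 RPKM, while most small HSPs start near or below 1 RPKM.

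**Figure D2:**
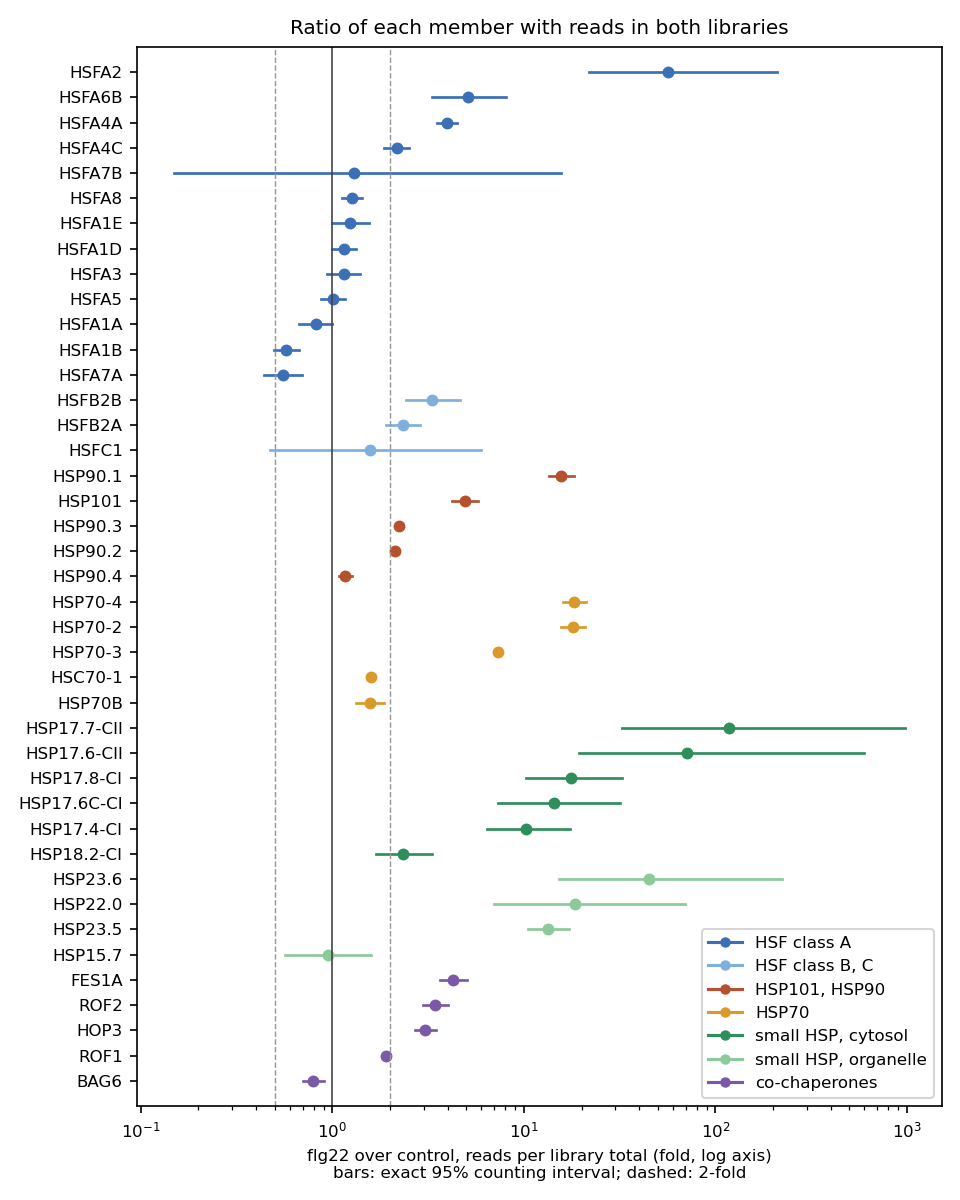
Ratio of flg22 over control for the 41 genes with reads in both libraries (log axis), ordered by size within each group; bars are exact 95% counting intervals and dashed lines mark 2-fold. HSFA1B, HSFA7A and BAG6 are the genes whose whole interval lies below 1.

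The 2 classes of gene did not shift alike. Of the 25 chaperone and co-chaperone genes in the background set, 19 were at least 2-fold higher, beside 11.3% of all its genes. Their median log2 ratio was 1.92. Of the 14 HSF genes in that set, 5 were at least 2-fold higher and the median was 0.27. However, 6 of the 25 and 2 of the 14 entered this set only through their flg22 value. The counts and medians therefore describe these genes and carry no test. At 1 RPKM or more in control, 13 of 19 chaperone genes and 3 of 12 HSF genes were at least 2-fold higher, beside 9.52% of all such genes. The medians there were 1.44 for the chaperone genes and 0.19 for the HSF genes.

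**Figure D3:**
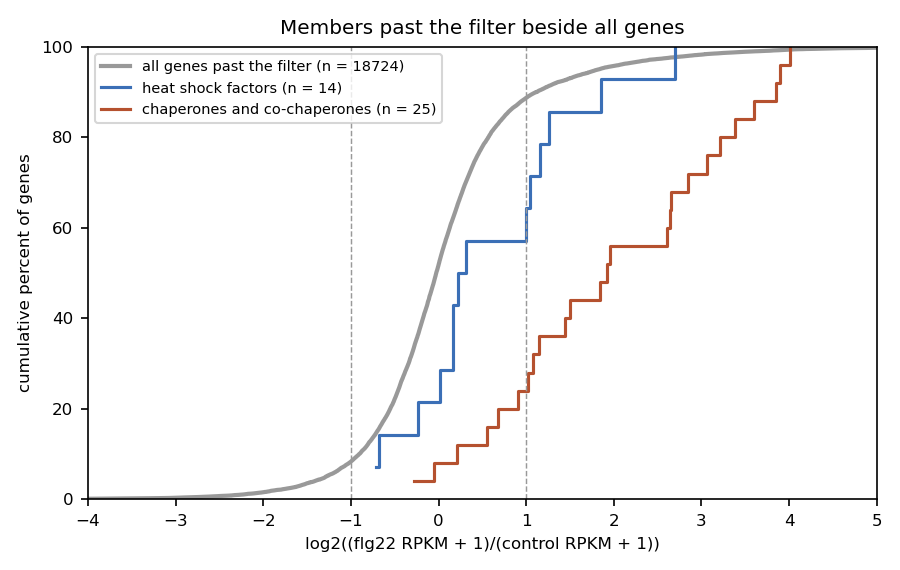
Cumulative percent of genes (vertical axis) below each log2 ratio of flg22 over control (horizontal axis, 1 RPKM added) for all 18724 genes of the background set, for 14 HSF genes and for 25 chaperone and co-chaperone genes. The chaperone curve lies to the right, with a median of 1.92 against 0.27 for the HSF genes.

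The HSFA1 genes, whose proteins are the primary activators of the heat response, stayed within 2-fold. HSFA1A (AT4G17750) was at 5.36 RPKM in control and 4.39 RPKM with flg22, a ratio whose interval included no difference (1.22-fold lower, 0.998 to 1.49). HSFA1B (AT5G16820), the most abundant of the 4 in control, was at 7.91 and 4.55 RPKM and so 1.74-fold lower (1.50 to 2.02). HSFA1D (AT1G32330) was at 4.74 and 5.45 RPKM, and HSFA1E (AT3G02990) at 2.17 and 2.69 RPKM. Their ratios of 1.15-fold (0.998 to 1.33) and 1.24-fold (0.991 to 1.56) also had intervals that included 1. HSFA1B thus gave up its leading place: its share of the reads of the 4 genes was 39.3% (exact binomial interval 36.4 to 42.2) in control and 25.8% (23.3 to 28.5) with flg22. With flg22 HSFA1D had the highest RPKM, but its counting interval of 4.96 to 5.98 RPKM overlapped those of HSFA1B and HSFA1A.

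Among the HSFs that act after HSFA1, HSFA2 had the largest ratio, from few control reads. HSFA2 (AT2G26150), the amplifier of the heat response, had 4 reads in control and 261 with flg22, or 0.109 and 6.18 RPKM, a ratio of 56.8-fold (21.9 to 210). It entered the background set only through its flg22 value, so that it had to be higher there. With 1 RPKM added its log2 ratio was 2.70, beside 1.85 for HSFA4A. The related heat-induced genes HSFA7A (AT3G51910) and HSFA7B (AT3G63350) were not higher in this way. HSFA7A was at 7.01 RPKM in control and 3.89 RPKM with flg22, 1.80-fold lower (1.43 to 2.27). HSFA7B had 2 and 3 reads, so that no difference was detectable at this depth. HSFA3 (AT5G03720), known as a target of the drought and heat regulator DREB2A, was at 4.33 and 4.97 RPKM, 1.15-fold (0.938 to 1.40).

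The HSFA4 genes were higher. HSFA4A (AT4G18880), tied by earlier work to oxidative stress signalling, was at 7.66 RPKM in control and 30.3 RPKM with flg22, 3.95-fold higher (3.50 to 4.47). Among the HSF genes with reads it was the most abundant with flg22. HSFA4C (AT5G45710) was at 5.85 and 12.7 RPKM, 2.17-fold higher (1.87 to 2.52); its log2 ratio with 1 RPKM added was 0.998, just inside the 2-fold limit. HSFA5 (AT4G13980), whose protein pairs with HSFA4 proteins, was level at 6.56 and 6.63 RPKM. HSFA6B (AT3G22830), an abscisic acid-responsive factor gene, went from 25 to 146 reads, 5.08-fold higher (3.31 to 8.11). Like HSFA2, it entered the background set only through its flg22 value. HSFA8 (AT1G67970) went from 12.6 to 15.9 RPKM, 1.26-fold (1.12 to 1.42).

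In class B, HSFB2A (AT5G62020) and HSFB2B (AT4G11660), both repressor genes, were higher. HSFB2A was at 4.03 and 9.38 RPKM, 2.33-fold (1.91 to 2.86), and HSFB2B at 1.12 and 3.73 RPKM, 3.32-fold (2.42 to 4.63). HSFC1 (AT3G24520) had 5 reads in control and 9 with flg22, 1.57-fold (0.471 to 5.95). HSFB1 (AT4G36990), also called TBF1 and known as a regulator of the switch from growth to defence, was listed at 0 reads in both libraries. AT4G36988, the locus of a short upstream reading frame in the HSFB1 leader, has the same listed length of 1974 bases and was also listed at 0 in both. In the whole table, 61 neighbouring pairs of identifiers less than 10 apart share a listed length, and in 56 of them both genes were listed at 0 in both libraries. The 0 of HSFB1 was therefore not read as absence of its transcript.

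Heat shock elements were looked up in the 300 bases before each annotated gene start of the RefSeq TAIR10.1 genome, which held all 43 genes. The deposited gene length matched the RefSeq gene span to within 1 base for only 2 of the 43. These starts may thus differ from those of the counted gene models, and a window without a match does not show that a gene lacks the element. The motif of 2 facing units was GAANNTTC or TTCNNGAA, each its own reverse complement, and it occurred in 15 of the 43 windows (34.9%) and in 19.3% of the windows of all 27443 protein-coding nuclear genes. With 1 more unit 2 bases further on, a longer element that contains both of these motifs, it occurred in 6 of 43 windows and in 0.485% of all windows. Shown 5′ to 3′ on the gene's strand are all 8 matches of 3 units, in capitals, because genes with the same element differed widely in their ratios:
HSFA2 chr2:11135521-11135563 (+): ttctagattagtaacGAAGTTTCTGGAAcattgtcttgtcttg
HSFA7A chr3:19264934-19264976 (+): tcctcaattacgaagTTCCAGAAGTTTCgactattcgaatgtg
HSFA7A chr3:19264984-19265026 (+): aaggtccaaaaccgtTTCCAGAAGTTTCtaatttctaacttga
HSFA7B chr3:23399064-23399106 (+): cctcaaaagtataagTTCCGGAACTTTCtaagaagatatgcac
HSP90.1 chr5:21352254-21352282 (+): aacgaaaaGAACTTTCTGGAAttcgtttg
HSP17.4-CI chr3:16984939-16984981 (-): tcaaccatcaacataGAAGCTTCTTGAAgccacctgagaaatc
HSP17.4-CI chr3:16984858-16984900 (-): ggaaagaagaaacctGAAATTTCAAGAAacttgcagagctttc
HSP17.6C-CI chr1:19980231-19980273 (+): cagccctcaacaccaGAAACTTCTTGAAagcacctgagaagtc

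The element of HSFA2 begins 88 bases before the annotated start, those of HSFA7A begin 192 and 142 bases before it, and that of HSFA7B 157 bases before it. In the small HSP genes they begin 99 and 18 bases before the start of HSP17.4-CI and 53 bases before that of HSP17.6C-CI. For HSP90.1 the annotation places no bases between gene start and coding start, so its 295 bases are counted from the coding start. The stretch formed by this element and its flanks overlaps the annotated span of the neighbouring gene AT5G52630. HSFA2, HSP90.1, HSP17.4-CI and HSP17.6C-CI were at least 10.3-fold higher, whereas HSFA7A, with 2 such elements, was lower and HSFA7B was near 0 in both libraries. On the gene's strand the elements of HSFA7A and HSFA7B begin with TTC and the others with GAA, the same element in the opposite orientation. Whether this orientation bears on the ratios was not tested. Over all genes at least 2-fold higher, 4 of 25 windows (16.0%) held the element of 3 units; of the 17 windows of genes with reads within 2-fold, 2 did (11.8%).

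Motifs of other factors were looked up in the same windows. The W-box, TTGACC or TTGACT on either strand, to which WRKY factors bind, occurred in 10 of 43 windows (23.3%) and in 32.3% of all windows. It was in 8 of the 25 windows of genes at least 2-fold higher (32.0%). Of the 17 windows of genes with reads within 2-fold, 2 held it (11.8%). The TL1 element GAAGAAGAA, known as the binding site of HSFB1, occurred on either strand in 2 of 43 (4.65%), upstream of HSP70B and HSP23.5, and in 4.96% of all windows. Matches are letters in a window that depends on the annotated start and say nothing of whether a factor was bound.

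**Figure D4:**
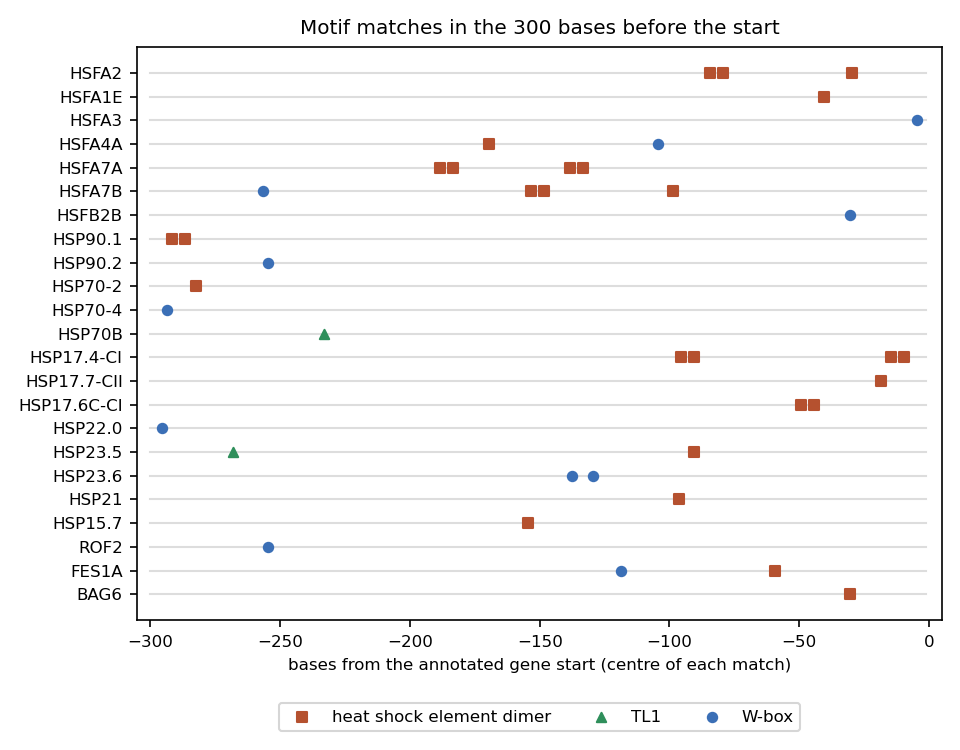
Position of each match in the 300 bases before the annotated start (horizontal axis, bases, centre of the match) for the 23 genes with any match: heat shock element of 2 units (squares), TL1 (triangle) and W-box (circle). Adjoining squares in HSFA2, HSFA7A, HSFA7B, HSP90.1, HSP17.4-CI and HSP17.6C-CI are the elements of 3 units.

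The 5 cytosolic HSP70 genes summed to 557 of the 792 RPKM of the 26 chaperone and co-chaperone genes in control and to 1239 of 1877 RPKM with flg22, and their make-up differed between the libraries. HSC70-1 (AT5G02500), the constitutive HSP70, was at 506 RPKM in control and 810 RPKM with flg22, 1.60-fold higher (1.58 to 1.62). HSP70-3 (AT3G09440) was at 38.4 and 282 RPKM, 7.34-fold higher (7.01 to 7.69). HSP70-2 (AT5G02490), the tandem neighbour of HSC70-1, was at 3.65 and 66.0 RPKM, 18.1-fold higher (15.7 to 20.9), and HSP70-4 (AT3G12580), a stress-inducible copy, at 4.02 and 73.7 RPKM, 18.3-fold higher (16.0 to 21.1). HSP70B (AT1G16030), best known as strictly heat-induced, was at 4.43 and 6.94 RPKM, 1.57-fold higher (1.33 to 1.85).

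In control, HSP70-2, HSP70-4 and HSP70B had overlapping counting intervals between 3.16 and 5.06 RPKM, but with flg22 HSP70B stayed below 7.66 RPKM while HSP70-2 and HSP70-4 were above 64.0 RPKM. HSC70-1 took 91.5% of the reads of the 5 genes in control (exact binomial interval 91.2 to 91.8) and 66.8% with flg22 (66.4 to 67.1). HSP70-3 took 6.51% (6.24 to 6.79) and 21.8% (21.5 to 22.1). The neighbours HSC70-1 and HSP70-2 share no stretch of 50 bases in their exons.

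**Figure D5:**
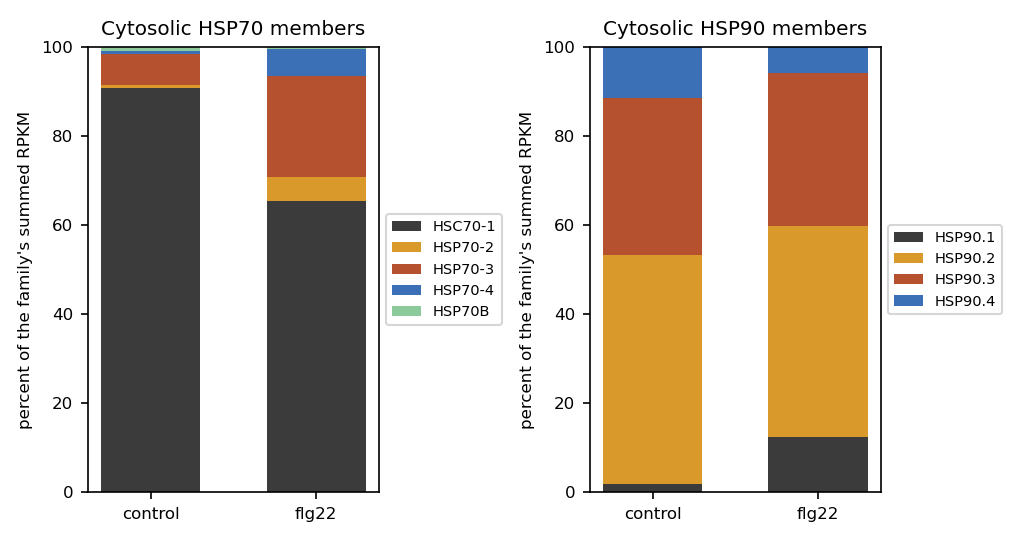
Composition of the cytosolic HSP70 (left) and HSP90 (right) transcripts in each library, as percent of the family's summed RPKM; colours are genes. HSC70-1 falls from 90.9% to 65.4% of the HSP70 sum, and HSP90.1 goes from 1.82% to 12.5% of the HSP90 sum.

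Of the HSP90 genes, HSP90.1 (AT5G52640), the stress-inducible copy, was at 3.14 RPKM in control and 49.4 RPKM with flg22, 15.7-fold higher (13.6 to 18.2). The constitutive copies were more abundant in control and had ratios closer to 1. HSP90.2 (AT5G56030), known from mutants that weaken immune receptors, was at 88.6 and 188 RPKM, 2.12-fold higher (2.05 to 2.19), HSP90.3 (AT5G56010) at 60.6 and 136 RPKM, 2.24-fold higher (2.15 to 2.33), and HSP90.4 (AT5G56000) at 19.8 and 23.0 RPKM, 1.16-fold (1.08 to 1.26). HSP90.1 went from the least abundant of the 4 to the place before HSP90.4. The division of reads among the clustered constitutive copies is uncertain, since 18.3% of the 50-base stretches of the HSP90.2 exons, 23.9% of those of HSP90.3 and 18.7% of those of HSP90.4 occur elsewhere in the genome; HSP90.1 has none. HSP101 (AT1G74310), the disaggregase required for acquired heat tolerance, was at 2.49 and 12.2 RPKM, 4.90-fold higher (4.20 to 5.73).

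Small HSP genes had low control levels, between 0 and 3.34 RPKM, and so loosely bounded ratios. The 6 cytosolic members together had 96 reads in control and 1226 with flg22, 11.1-fold higher (9.02 to 13.8), and the 5 organelle members 109 and 1410 reads, 11.3-fold higher (9.25 to 13.8). Of the 10 small HSP genes in the background set 9 were at least 2-fold higher, beside 11.3% of all its genes, but 6 of the 10 entered that set only through their flg22 value. At 1 RPKM or more in control, 3 of 4 were at least 2-fold higher, beside 9.52% of all such genes. The class II genes HSP17.7-CII (AT5G12030) and HSP17.6-CII (AT5G12020), which lie side by side on chromosome 5, had 2 reads each in control and 272 and 164 with flg22. Their ratios were 118-fold (32.4 to 982) and 71.3-fold (19.4 to 594). HSP17.7-CII, with 17.5 RPKM in the flg22 library, ranked 109 of 18724 genes by log2 ratio, but entered that set only through its flg22 value. Of the genes at 1 RPKM or more in control, HSP70-4 ranked highest among the 43, at 130.

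Of the class I genes, HSP17.8-CI (AT1G07400) went from 0.802 to 14.1 RPKM, 17.6-fold higher (10.3 to 32.6), HSP17.6C-CI (AT1G53540) from 0.650 to 9.29 RPKM, 14.3-fold (7.33 to 31.9), and HSP17.4-CI (AT3G46230) from 1.23 to 12.6 RPKM, 10.3-fold (6.41 to 17.4). HSP18.2-CI (AT5G59720) had the highest control level of the cytosolic members, 3.34 RPKM, and the lowest flg22 level, 7.83 RPKM, a ratio of 2.35-fold (1.69 to 3.32). Even with flg22 none of these 6 passed 17.5 RPKM, well under HSP90.1 at 49.4 RPKM.

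Both mitochondrial genes were higher. HSP23.5 (AT5G51440) went from 71 to 1092 reads, or 3.16 to 42.3 RPKM, the highest flg22 level of the 11 genes, 13.4-fold higher (10.5 to 17.3). Its mitochondrial relative HSP23.6 (AT4G25200) went from 3 to 156 reads, 45.2-fold (15.2 to 222). HSP22.0 (AT4G10250) of the endoplasmic reticulum went from 4 to 85 reads, 18.5-fold (6.96 to 69.4). HSP21 (AT4G27670) of the chloroplast had 0 reads in control and 43 with flg22. Its ratio was 12.5-fold when 3 control reads are assumed in place of 0, and the lower limit of its exact interval is 9.71-fold. HSP15.7 (AT5G37670) of the peroxisome was level, with 31 and 34 reads, or 2.79 and 2.67 RPKM, and was the 1 small HSP gene within 2-fold.

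Co-chaperones were mostly higher by a few fold. HOP3 (AT4G12400), which links HSP70 to HSP90, was at 5.11 RPKM in control and 15.6 RPKM with flg22, 3.06-fold higher (2.69 to 3.49). FES1A (AT3G09350), which keeps cytosolic HSP70 stable, was at 3.73 and 16.0 RPKM, 4.29-fold higher (3.65 to 5.06). The HSP90-binding prolyl isomerase gene ROF2 (AT5G48570) was at 2.90 and 10.00 RPKM, 3.45-fold higher (2.96 to 4.04), and its relative ROF1 (AT3G25230), already at 29.8 RPKM in control, was at 56.9 RPKM with flg22, 1.91-fold higher (1.81 to 2.01). BAG6 (AT2G46240), a calmodulin-binding BAG domain gene with a role in basal immunity, went the other way, from 6.55 to 5.22 RPKM, 1.26-fold lower (1.11 to 1.42).

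A further 49 genes of the same machinery, drawn from the same families and pathways, were set beside the 43. In the background set were 44 of them, of which 9 were past 2-fold upwards and 2 downwards, beside 11.3% and 8.27% of all its genes. Their median log2 ratio was 0.52, against -0.03 over the whole set. At 1 RPKM or more in control, 7 of 42 were at least 2-fold higher, beside 9.52% of all such genes. None of the 12 measured genes of organelle HSP70, HSP90 and ClpB proteins and the large or divergent HSP70s was past 2-fold. With 12 genes this cannot be set apart from the 11.3% of the background set. Their median was 0.44, and the largest log2 ratio, 0.95, lay just under the limit. Of the 7 measured other small HSPs, 4 were higher. HSP17.6A-CI (AT1G59860) led at 12.6-fold (7.04 to 24.9), but entered the background set only through its flg22 value. The others were HSP17.6B-CI (AT2G29500), 2.88-fold (2.47 to 3.37), HSP15.4 (AT4G21870), 2.51-fold (2.24 to 2.82), and HSP17.4-CIII (AT1G54050), 2.59-fold (1.82 to 3.75). At 1 RPKM or more in control, 3 of 6 were at least 2-fold higher, beside 9.52% of all such genes.

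Among the 18 further co-chaperone genes, 2 were higher and 2 lower, shares near the 11.3% and 8.27% of the background set. The J-domain gene J2 (AT5G22060), whose product delivers clients to HSP70, was 3.30-fold higher (3.12 to 3.50), and SGT1A (AT4G23570), an HSP90 partner of immune receptors, 3.60-fold higher (3.25 to 3.99). FES1B (AT3G53800), a paralogue of FES1A, was 3.74-fold lower (3.34 to 4.19), opposite to FES1A, and BAG2 (AT5G62100) was 3.61-fold lower (2.54 to 5.21). Of the 4 remaining HSF genes HSFB3 (AT2G41690) was 4.44-fold higher, from 10 to 51 reads (2.23 to 9.80). HSFA6A (AT5G43840) went the other way, from 9 reads to 0, with an upper limit of 0.441 for the ratio of flg22 over control. HSFB4 (AT1G46264) was level at 8.80 and 8.53 RPKM, and HSFA9 (AT5G54070) had 1 read in control and 0 with flg22. The heat co-activator gene MBF1C (AT3G24500) was 6.46-fold higher (4.91 to 8.62), and DREB2A (AT5G05410), the regulator upstream of HSFA3, 4.64-fold higher (3.77 to 5.74).

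In the authors' deposited table, which compares the same 2 unreplicated libraries, 5 of the 42 genes with a value had a false discovery rate (FDR) below 0.05, all higher with flg22, beside 0.811% of all 23414 genes with a value. By the authors' deposited table these were HSP17.7-CII (FDR 0.00959), HSFA2 (0.0238), HSP70-4 (0.0450), HSP70-2 (0.0468) and HSP17.6-CII (0.0476). Next among the 43 in the authors' deposited table was HSP90.1, with an FDR of 0.0660. These values describe 2 libraries and cannot reflect spread between plants.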

How the data were processed

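The authors deposited read counts and RPKM per gene for 1 control and 1 flg22 library, with the gene length in bases, per the file headers. Bowtie, TopHat, DESeq and the TAIR10 genome are named without versions or roles, per the submitters' processing notes; for the counting program, strand and overlapping genes the treatment is not stated there. Deposited RPKM equalled reads over listed length and column total to within 7.24e-06%. The authors' deposited columns of scaled signal, fold ratio, log2 fold change, p-value, −log10 p and FDR come from that single pair of libraries, and only log2 fold changes and FDR were used.

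From the deposited RPKM, log2 ratios were computed after adding 1 RPKM, and genes averaging 1 RPKM or more formed the background set. Fold ratios use counts per column total with exact conditional binomial (Clopper-Pearson) intervals at 95%. Where the control library had 0 reads, a separate ratio assumed 3 in their place, while the interval kept the 0. Without molecular identifiers, PCR copies count as reads, and these limits cover counting error alone. No test was possible. Motifs, gene spans and shared 50-base stretches come from RefSeq's TAIR10.1 genome and annotation by gene identifier, without combining them with coordinates of the deposited data; read length is not given in the sources used here. RefSeq symbols differ for some genes (HSP17.7-CII is HSP17.6A there). All 43 genes were described. Of the 49 related genes, those past 2-fold with 1 RPKM added and all 4 HSF genes were named. Genes, lists and motifs were chosen with earlier results of these data known. Alternatives covered added constant, filter and scaling, with Python 3.11.15, SciPy 1.17.1, pandas 2.3.3, R 4.3.3 and edgeR 4.0.16 (TMM factors only).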

Additional observations from a re-analysis of the deposited data

How the results depend on the processing

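The number of genes at least 2-fold higher, 24 of the 39 past the filter, ranged from 17 with a filter at 5 RPKM, which kept 28 of the 43, to 25 with no filter, with 0.1 RPKM added or with no added constant. It was 18 with 5 RPKM added, 21 with ratios centred on reference genes, and 22 without HSP90.2, HSP90.3 and HSP90.4. No gene was at least 2-fold lower under any alternative for added constant, filter or scaling. The median log2 ratio, 1.16, ranged from 0.83 with 5 RPKM added to 1.59 with 0.1 RPKM added. Over the whole background set the medians at these 2 settings were -0.02 and -0.03. Centring on the 10 reference genes moved every log2 ratio by -0.14, median-of-ratios scaling by 0.04 and TMM by 0.02. Of 123 rescaled gene ratios, 115 stayed within their counting interval. Each scaling shifts all genes alike, so this outcome follows from read depth, which sets the width of the interval. Those that left it were of HSC70-1, HSP70-3, HSP90.2, HSP90.3, HSP90.4 and ROF1, all with many reads. HSFA5, near 0, was the gene whose sign changed. Of 124 alternative counts by group, list or motif window, 9 moved by over 1.5 times, most of them from small counts. Among them HSFB2A and HSFB2B both fell inside 2-fold with 5 RPKM added. The W-box went from 10 of 43 windows to 5 with windows of 200 bases (11.6%, beside 24.3% of all windows). Windows of 500 bases and of 200 bases were both chosen after seeing the data. At 500 bases the heat shock element of 3 units was in 6 of 43 windows, beside 0.827% of all windows. At 200 bases it was in 5 of 43, beside 0.288% of all windows. No paired analysis was possible because each group is 1 library; for the same reason no replicate could be left out. Genes with under 10 control reads have ratios limited by depth.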
